A study of Mus musculus with 24 samples.

Results

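The 10 genes described here encode proteins of the intermediate filaments and of the contractile, actin-based cytoskeleton. They were chosen by name, with earlier results of these data known, and make up 10 of the 24411 genes in the tables. Of the 10, 4 encode intermediate filament proteins (*Gfap*, *Vim*, *Nes* and *Synm*) and 6 encode contractile or actin-binding proteins (*Tagln*, *Tagln2*, *Acta2*, *Cnn2*, *Myl9* and *Tpm1*). Astrocytes and microglia were cultured from early postnatal WT and *SOD1G93A* mice, a model of amyotrophic lateral sclerosis, and their polyadenylated RNA was sequenced in bulk. The study asked whether the glia of both genotypes differ when quiescent and once activated. Astrocytes were collected by immunopanning, in which cells bind to coated dishes that first took out microglia, endothelial cells and oligodendrocyte lineage cells, and microglia by magnetic sorting for Cd11b. Cells were grown without serum, the astrocytes with the growth factor HBEGF and the microglia with TGF-β2 and IL-34. Quiescent cells of both types received PBS. To activate them, astrocytes received 3 ng/ml of IL-1α with 30 ng/ml of TNFα and 400 ng/ml of C1q, and microglia 50 ng/ml of LPS. *SOD1G93A* mice carry a mutant human SOD1 transgene that is driven by the human promoter in many cell types, so the transgene is not restricted to glia in this model. The 7 conditions with values, at 3 libraries each (21 in all), were astrocytes of each genotype in both states, WT microglia with and without LPS, and *SOD1G93A* microglia with LPS. *SOD1G93A* microglia without LPS (3 libraries) were not analysed here.

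Intermediate filaments are rope-like polymers that give cells mechanical strength. In astrocytes they are built from glial fibrillary acidic protein (*Gfap*) together with vimentin (*Vim*), nestin (*Nes*) and synemin (*Synm*), and a higher *Gfap* level is the common sign of reactive astrocytes. Contractile cells such as smooth muscle slide actin (*Acta2*) over myosin while tropomyosins, calponins and transgelins bind along the actin filament, and serum response factor, its myocardin-related partners and TGF-β are known to switch on many of these genes.

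A library held 2016139 to 11570122 reads on genes (median 5098168). The *SOD1G93A* activated astrocytes had 2135439 to 3929272 reads, against 5047999 to 6768201 in WT activated astrocytes, so genotype and depth cannot be told apart there. The deposited value of a gene is a normalized count, its reads divided by a size factor for the library, and a level is given here in CPM, the reads of a gene after each library is scaled to 1000000 reads on genes. Every gene that averaged 10 normalized counts or more was tested with limma on log2(normalized count + 1), which understates the change of genes with few reads. A gene was called at a Benjamini-Hochberg adjusted p under 0.001 with a change beyond 2-fold, and an adjusted p under 0.05 at any fold served as a looser limit. With 3 libraries against 3, the smallest p that an exact test can reach is 0.1. Nothing in the labels says that the libraries of a condition came from separate animals or cultures, so the p values measure the spread between these libraries. Libraries of a condition differed beyond counting error, since chi-square divided by its degrees of freedom was 1.50 to 21.7 over 21 pairs. The comparisons share libraries, among them the WT quiescent and WT activated astrocytes and the WT LPS microglia, and are not independent of each other. The results known beforehand, *Gfap* in WT activation and *Tagln* between quiescent genotypes, share libraries with other comparisons, and a test of either gene that uses the same libraries is not independent of them.

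The labelled cell types could be read from their markers, and markers of other cells were present as well. The 12 astrocyte markers summed to 3843 to 6135 CPM in the astrocyte libraries and to 109 to 184 CPM in the microglia libraries, with the glutamate transporter *Slc1a3* the most abundant in astrocytes. One of them, the connexin gene *Gjb6*, had 3 or fewer reads in every astrocyte library. The 12 microglia markers summed to 4368 to 14754 CPM in microglia and 195 to 483 CPM in astrocytes, where *Laptm5* was the most abundant, and each of the 12 had more than 3 reads in at least 1 library of every astrocyte condition. The 10 oligodendrocyte lineage markers summed to 2971 to 3586 CPM in quiescent astrocytes and 1105 to 1195 CPM in activated ones. In quiescent microglia they summed to 1347 to 1386 CPM, and in LPS-treated microglia to 138 to 274 CPM. The 8 endothelial markers summed to 6.72 to 13.4 CPM in quiescent astrocytes and 111 to 154 CPM in activated ones, most of it *Flt1*. *Cldn5* and *Tie1* were at 0 in each of the 12 astrocyte libraries. The 9 neuron markers summed to 800.3 to 1037 CPM in quiescent and 526 to 601 CPM in activated astrocytes, with *Map2* the most abundant. In WT activation 4 of the 7 tested passed the looser limit as higher (limma), among them *Gap43* (18.3 to 136 CPM on average), and 2 as lower, among them *Map2* (872 to 384 CPM). Those lower were 1 of 7 without quiescent replicate 2 or any activated library.

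Together the 10 genes took 0.43% ± 0.08 of the reads in WT quiescent astrocytes, 0.30% ± 0.02 in *SOD1G93A* quiescent astrocytes, 0.55% ± 0.01 in WT activated astrocytes and 0.465% ± 0.0058 in *SOD1G93A* activated astrocytes (SD, n = 3). Scaled per kb of exon so that genes can be compared, *Vim* had the highest level of the 10 in every condition and *Synm* the lowest. In WT quiescent astrocytes the level per kb was 364 CPM for *Vim*, 250.3 for *Nes*, 112 for *Gfap* and 0.669 for *Synm*. Among the contractile genes there, *Tagln2* had 90.7 CPM per kb and *Tagln*, *Acta2*, *Cnn2*, *Myl9* and *Tpm1* had 16.04 to 39.99. In activated WT astrocytes *Tpm1* stood above the other 4 of these 5, at 38.6 CPM per kb against 8.12 to 17.9.

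*Gfap* had its highest level in WT activated astrocytes (937 ± 33.5 CPM, SD, n = 3), followed by *SOD1G93A* activated (726 ± 35.8), WT quiescent (474 ± 196) and *SOD1G93A* quiescent astrocytes (201 ± 22.4). The libraries of *SOD1G93A* activated and WT quiescent astrocytes overlapped, while the other neighbours in that order did not. In microglia *Gfap* had 25.2 to 61.7 CPM over the 9 libraries, and the 3 microglia conditions overlapped. *Vim* and *Nes* differed less between astrocyte conditions, at 1169 ± 155 to 2045 ± 42.5 and 1315 ± 50.7 to 1828 ± 90.5 CPM. Quiescent microglia had 1944 ± 22.3 CPM of *Vim*, within the range of the astrocyte conditions, and 893 ± 39.0 CPM of *Nes*, which was 116 ± 4.19 after LPS. *Synm* had 5 to 45 reads per astrocyte library and 0 to 3 reads per microglia library, which is within the 3 reads that a count of 0 allows.

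*Tagln*, *Acta2* and *Myl9* were highest in WT quiescent astrocytes (79.5 ± 9.86, 56.7 ± 7.32 and 22.6 ± 2.77 CPM), followed by *SOD1G93A* quiescent astrocytes (39.0 ± 1.79, 39.8 ± 8.25 and 17.4 ± 0.520), and these groups did not overlap. Activated astrocytes came next in the order of the means and microglia last, with some overlaps. The libraries of *SOD1G93A* quiescent and WT activated astrocytes overlapped for *Tagln* and *Acta2*. Those of quiescent microglia overlapped both WT and *SOD1G93A* activated astrocytes for *Acta2*. *Tpm1* was highest in activated astrocytes, with 250.3 ± 22.8 CPM in WT and 206 ± 16.8 in *SOD1G93A*, above the overlapping quiescent astrocytes of *SOD1G93A* (111 ± 12.9) and WT (104 ± 7.76). *Tagln2* and *Cnn2* were highest in quiescent microglia, at 332 ± 12.98 and 69.8 ± 3.44 CPM, although for *Tagln2* the LPS-treated *SOD1G93A* microglia overlapped them. *Tagln2* ran lowest in *SOD1G93A* quiescent astrocytes (104 ± 15.3 CPM), below each of the other conditions. *Acta2* shares sequence with the other actins, *Myl9* with *Myl12a* and *Myl12b*, and *Cnn2* and *Tpm1* with their paralogs, and reads that the counting split between such genes make these levels uncertain.

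**Figure D1:**
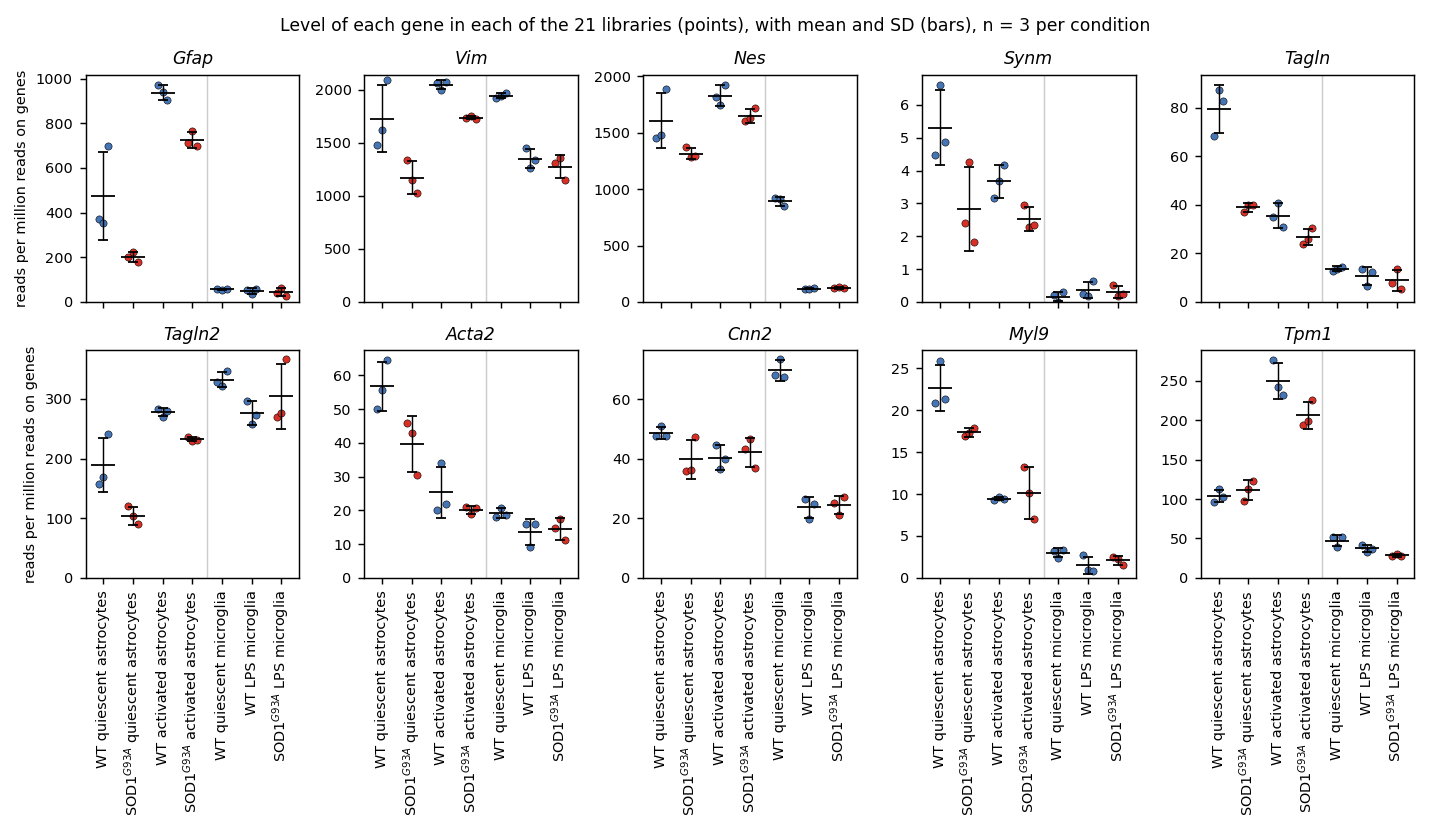
Level of each of the 10 genes (y axis, CPM, from 0) in the 7 conditions (x axis), with a point per library (blue WT, red *SOD1G93A*) and bars for the mean and SD of 3 libraries. *Gfap* in WT quiescent astrocytes lies at 352, 369.5 and 699 CPM, and *Tagln* is lower in each of the other 6 conditions than in WT quiescent astrocytes.

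Activation of WT astrocytes was examined first. *Gfap* (chromosome 11, 102887336 to 102900912, positions in GRCm38 with GENCODE M21) had 1735, 1682 and 3455 normalized counts in the quiescent libraries and 4716, 4539 and 4473 in the activated ones. Its result in this comparison was known when the genes were chosen, so these values are given as a description. The groups did not overlap, and quiescent replicate 3 lay between the other two quiescent libraries and the activated ones. *Vim* (chromosome 2, 13573927 to 13582826) had 6939.5, 7710.0 and 10300.4 normalized counts in quiescent and 10052, 9635 and 10281 in activated WT astrocytes. The same quiescent replicate 3 was as high as the activated libraries, so the groups overlapped. The log2 change (log2 of the fold) of *Vim* was 0.28 (limma, adjusted p = 0.14) and that of *Nes* (chromosome 3, 87971078 to 87980451) 0.22 (adjusted p = 0.22), neither past a limit. Without quiescent replicate 3 both passed the looser limit, *Vim* at 0.45, adjusted p = 0.00024 and *Nes* at 0.36, adjusted p = 0.0013, and without quiescent replicate 1 they came to 0.16 and 0.14. *Synm* (chromosome 7, 67730160 to 67759742) was lower in each activated library, with a log2 change of −0.47 that did not pass (adjusted p = 0.20) and was −0.31 without quiescent replicate 2.

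The contractile genes split in direction. *Tpm1* (chromosome 9, 67022590 to 67049406), a tropomyosin that stabilises actin filaments, had 454, 535 and 509.6 normalized counts in quiescent WT astrocytes and 1343, 1171 and 1152 in activated ones. Every activated library was above every quiescent one, by 2.45-fold between the means, and the rise was called (log2 change 1.29, standard error (SE) 0.10, limma, adjusted p = 1.6e-06). *Tagln* (chromosome 9, 45929619 to 45936058), which encodes the smooth muscle actin-binding protein transgelin, had 321, 417 and 408 normalized counts in quiescent and 171, 197 and 153 in activated libraries. *Myl9* (chromosome 2, 156775420 to 156781658), a regulatory light chain of myosin, had 97.8, 123 and 105 and then 45.3, 46.4 and 46.6. Both fell with no overlap and were called, *Tagln* at a log2 change of −1.13 (SE 0.13, adjusted p = 4.7e-05) and *Myl9* at −1.21 (SE 0.15, adjusted p = 8.1e-05, limma). *Acta2* (chromosome 19, 34241090 to 34255590), smooth muscle actin, had 235, 265 and 319 normalized counts before and 98.3, 164 and 109 after activation, with no overlap although activated replicate 2 stood above the other two. Its fall was called at a log2 change of −1.16 (SE 0.19, adjusted p = 0.00049), and was not called without quiescent replicate 2 (−1.18, adjusted p = 0.0040), activated replicate 1 (−1.02, adjusted p = 0.0036) or activated replicate 3 (−1.09, adjusted p = 0.0048). *Tagln2* (chromosome 1, 172500047 to 172507380), the transgelin of non-muscle cells, rose past the looser limit (log2 change 0.60, adjusted p = 0.0083), which it missed without quiescent replicate 2 (adjusted p = 0.0511). *Cnn2* (chromosome 10, 79988584 to 79996062), a calponin that restrains actomyosin, was slightly lower in each activated library without passing (log2 change −0.25, adjusted p = 0.10).

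Leaving *Gfap* aside, 4 of the other 9 genes were called in this comparison, 1 higher and 3 lower, against 11.5% of the 12336 genes tested, and 5 of the 9 passed the looser limit, against 38.3% of genes. Without *Tagln*, whose known result used the same WT quiescent libraries, 3 of 8 were called and 4 of 8 passed the looser limit. DESeq2 and edgeR each called 4 of the 9 as well. Without a trend in limma's variance, *Tagln* (−1.13, adjusted p = 0.0013) and *Acta2* (−1.16, adjusted p = 0.0061) were not called. Over all 15 alternative fits the adjusted p ran from 1.2e-11 to 0.0013 for *Tagln* and from 1.3e-07 to 0.0061 for *Acta2*. Other genes moved strongly between the same libraries. The 14 cell cycle genes summed to 3503, 3558 and 3789 CPM in the quiescent and 913, 1002 and 976 CPM in the activated WT libraries, with *Mki67* the most abundant, and 13 of the 14 fell at the stricter limits. The 10 oligodendrocyte lineage markers summed to 3145, 3074 and 2971 CPM and then 1158, 1195 and 1130.2 CPM, most of it *Olig1* and *Olig2*, and 3 of the 9 tested were called lower. Of the 11 astrocyte markers tested 9 were lower at the looser limit, 3 of them called, with sums of 5098, 5543 and 6135 CPM and then 3843, 3889 and 3951 CPM. In bulk RNA, fewer cells of a type and less RNA per cell cannot be told apart, and the part of these lists in the fall of *Tagln*, *Acta2* and *Myl9* was not tested. The 14 markers of pericytes, smooth muscle and fibroblasts summed to 158, 144 and 184 CPM in the quiescent and 195, 189.9 and 180.2 CPM in the activated libraries, and 2 of the 6 tested were called higher. Most of that sum was *Pdgfra*, which oligodendrocyte precursors also express and which stands in their list too, and *Notch3*, while *Kcnj8* was at 0 and the smooth muscle myosin *Myh11* was at 0.216 CPM or less on average in WT astrocytes.

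Activation of *SOD1G93A* astrocytes was fitted over all 12 astrocyte libraries on 1 scale. *Gfap* had 929, 988 and 779 normalized counts in the quiescent *SOD1G93A* libraries and 3339.8, 3634 and 3334 in the activated ones. The libraries of each state lay close together and far from the other state, 3.82-fold apart in their means, and the rise was called (log2 change 1.94, SE 0.19, limma, adjusted p = 1.9e-07). *Vim* had 6137, 5093 and 4475 and then 8138, 8298 and 8209.7 normalized counts, and rose in each activated library by less than 2-fold (log2 change 0.66, adjusted p = 0.00079). *Nes*, a filament protein of neural progenitors, rose past the looser limit as well (log2 change 0.41, adjusted p = 0.010). *Synm* did not pass, at a log2 change of −0.0047 with a SE of 0.32.

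Among the contractile genes, *Tagln2* had 554, 456 and 392 normalized counts in quiescent and 1109.9, 1091 and 1104 in activated *SOD1G93A* astrocytes. It rose 2.36-fold between the means with no overlap and was called (log2 change 1.25, SE 0.14, limma, adjusted p = 1.5e-06). *Tpm1* had 449.6, 498 and 539 and then 909.6, 944 and 1075 normalized counts. Its log2 change of 0.98 (adjusted p = 3.3e-07) lay just under the 2-fold limit, and it was called without quiescent replicate 3 (1.04, adjusted p = 6.4e-07) or activated replicate 1 (1.03, adjusted p = 2.6e-06). *Tagln*, *Acta2* and *Myl9* were lower in each activated library and fell past the looser limit, with log2 changes of −0.47 (adjusted p = 0.0076), −0.87 (adjusted p = 0.0011) and −0.73 (adjusted p = 0.0047). Quiescent replicate 3 had the least *Acta2* of its group (133 normalized counts against 211 and 191), and without it the fall of *Acta2* was called (−1.07, adjusted p = 0.00018). With depth class as a term the change of *Acta2* was −0.56. *Cnn2* did not pass (log2 change 0.17, adjusted p = 0.28), and was 0.10 without quiescent or activated replicate 2, 0.29 without quiescent replicate 3 and 0.06 with depth class as a term. In all, 2 of the 10 genes were called, against 13.3% of the 12269 genes tested, and 8 of 10 passed the looser limit, against 43.4%. The 8 include *Tagln*, whose known result used the same *SOD1G93A* quiescent libraries. Neither the test of *Tagln* nor that count is independent of the known result. All 14 cell cycle genes were called lower here too, with sums of 3594, 3368 and 3308 CPM in quiescent and 935, 839.9 and 919 CPM in activated *SOD1G93A* libraries. The oligodendrocyte lineage markers summed to 3586, 3339 and 3374 CPM in quiescent and 1134, 1105 and 1181 CPM in activated *SOD1G93A* libraries, and 2 of the 9 tested were called lower. The pericyte, smooth muscle and fibroblast markers summed to 128, 124 and 108 CPM and then 147, 146 and 128 CPM, and 3 of the 5 tested were called higher. At the looser limit 6 of the 11 astrocyte markers tested and 5 of the 11 microglia markers tested were lower, and the 5 became 0 to 7 when 1 library was left out. The microglia markers summed to 446, 483 and 314 CPM and then 304, 211 and 219.6 CPM. Of the 7 neuron markers tested 2 were called higher and 1 lower, and *Flt1*, the only endothelial marker tested, was called higher in the activation of both genotypes. The part of these lists in the results of the 10 genes was not tested.

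**Figure D2:**
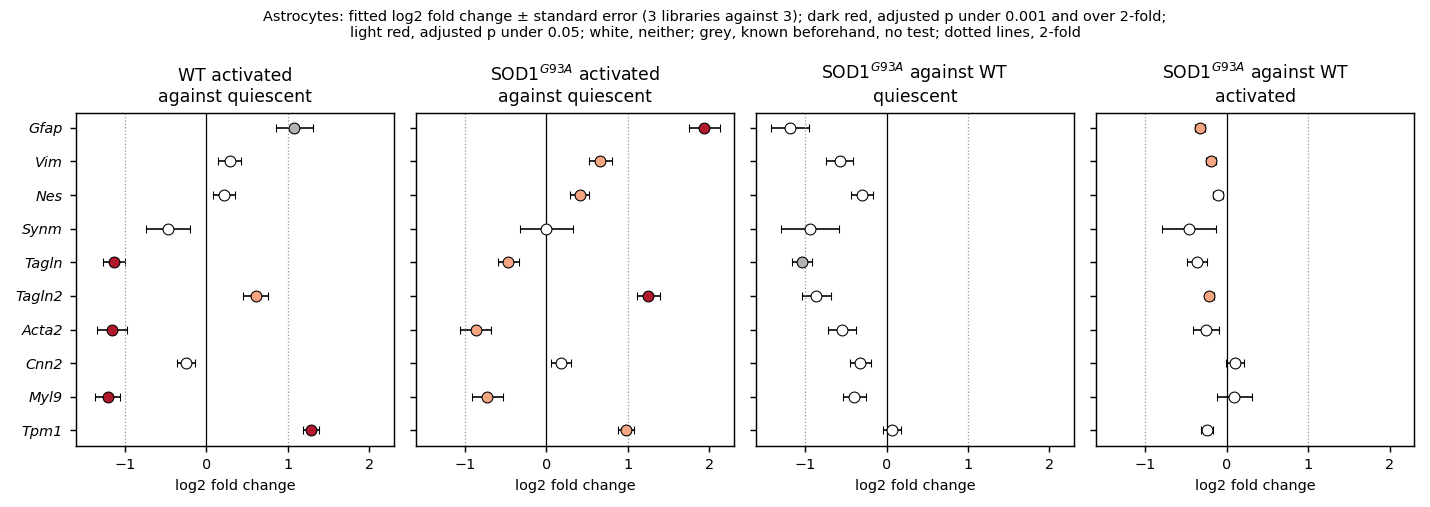
Fitted log2 change (x axis) of each of the 10 genes (y axis) in the 4 astrocyte comparisons, with bars for the SE and dotted lines at 2-fold. Dark red points passed an adjusted p of 0.001 and 2-fold, light red points an adjusted p of 0.05 alone, grey points were known beforehand and carry no test, and *Gfap* lies at 1.08 in WT and 1.94 in *SOD1G93A* activation.

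Whether activation acted differently in the genotypes was tested as an interaction in the same 12 libraries. In the WT and *SOD1G93A* fits side by side the log2 change was 1.08 and 1.94 for *Gfap*, 0.60 and 1.25 for *Tagln2*, −1.13 and −0.47 for *Tagln*, and 1.29 and 0.98 for *Tpm1*. The interaction on the log2 scale is a difference of 2 contrasts, of which that of *Gfap* in WT activation and that of *Tagln* between quiescent genotypes were known when the genes were chosen. For these 2 genes it is a description, 0.86 for *Gfap* and 0.67 for *Tagln*. Without WT quiescent replicate 3 that of *Gfap* was 0.52. For *Tagln2* it was 0.65 (limma, adjusted p = 0.35) and for *Tpm1* −0.31 (adjusted p = 0.58). limma called 0 of the other 8 genes, against 0% of the 12269 tested, and 0 passed the looser limit, against 0.277% of genes (34, and 13 to 68 when 1 library was left out). At an unadjusted p under 0.05 there were 3 of the 8 genes and 1018 genes in all (8.30%), and DESeq2 and edgeR also called 0 of the 8. The interaction depended on how depth was treated. In the fit with a depth class as a term, which splits the libraries into 6 shallow and 6 deep ones, *Tagln2* (1.30, adjusted p = 6.1e-05) was called and *Vim*, *Nes* and *Acta2* passed the looser limit, while 56 genes in all were called (0.456%) and 1528 passed the looser limit (12.5%). The value of *Gfap* there was 1.73. Over all 21 alternative fits the adjusted p ran from 6.1e-05 to 0.67 for *Tagln2*. All 3 *SOD1G93A* activated libraries are in the low-depth class and all 3 WT activated ones in the other, so a different response of *SOD1G93A* astrocytes and a depth effect cannot be told apart by that fit.

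Quiescent astrocytes of the genotypes were compared next. *Tagln* had 339, 435 and 423 normalized counts in WT and 186, 196 and 196 in *SOD1G93A* libraries. Each *SOD1G93A* library held less than each WT one, and because this result was known when the genes were chosen it is given without a test. *Gfap* had 1829.7, 1752 and 3581 in WT and 1016, 1090.1 and 869.8 in *SOD1G93A* libraries. The groups did not overlap, but WT replicate 3 held far more *Gfap* than the other two, and the log2 change of −1.19 (SE 0.24) did not pass (limma, adjusted p = 0.18). These WT libraries also entered the known result of *Gfap*, so its test is not independent of that. Without WT replicate 3 it was −0.86 and passed the looser limit (adjusted p = 0.036). *Tagln2* had 779, 838 and 1234 in WT and 606, 504 and 437 in *SOD1G93A* libraries, a log2 change of −0.86 (adjusted p = 0.19). The other filament genes had log2 changes of −0.58 for *Vim* (adjusted p = 0.39), −0.30 for *Nes* (0.58) and −0.94 for *Synm* (0.50), and the other contractile genes −0.55 for *Acta2* (0.44), −0.40 for *Myl9* (0.49), −0.33 for *Cnn2* (0.52) and 0.07 for *Tpm1* (0.87), with the adjusted p of limma in parentheses. Without WT replicate 3 the change of *Nes* was −0.16, without *SOD1G93A* replicate 3 that of *Acta2* was −0.36, and that of *Tpm1* was 0.01 without WT replicate 1 and 0.14 without *SOD1G93A* replicate 1.

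In 9 of the 10 genes the *SOD1G93A* libraries were all below the WT libraries, a pattern met by 7.57% of the 12271 genes tested, and the exception was *Tpm1*. Earlier results of this comparison were known when the genes were chosen, so the count is a description. Of the 9 genes other than *Tagln*, limma called 0, against 0% of all genes, and 0 passed the looser limit, against 0.057% (7 genes, and 1 to 6 when 1 library was left out). At an unadjusted p under 0.05 there were 7 of these 9 genes and 1068 genes in all (8.70%). DESeq2 called 0 of the 9 and placed 2 of them, *Vim* and *Tagln2*, under an adjusted p of 0.05, with 50 genes in all, while edgeR did so for 0, with 7 genes in all. With depth class as a term, where WT replicates 1 and 2 and *SOD1G93A* replicate 3 form the shallow class, *Gfap* (−1.40, adjusted p = 5.0e-06) and *Tagln2* (−1.02, adjusted p = 2.9e-05) were called and *Vim*, *Nes* and *Acta2* passed the looser limit, while 13 genes in all were called (0.106%) and 746 passed the looser limit (6.08%). Over the alternatives the adjusted p ran from 5.0e-06 to 0.97 for *Gfap* and from 2.9e-05 to 0.97 for *Tagln2*. Markers of other cells were summed in the same libraries. The 14 pericyte, smooth muscle and fibroblast markers summed to 158, 144 and 184 CPM in WT and 128, 124 and 108 CPM in *SOD1G93A* quiescent libraries, with *Pdgfra* the most abundant and *Kcnj8* at 0. The 12 microglia markers summed to 195, 289.7 and 362 CPM in WT and 446, 483 and 314 CPM in *SOD1G93A* libraries. The oligodendrocyte lineage list, with *Olig1* the most abundant, summed to 3145, 3074 and 2971 CPM in WT and 3586, 3339 and 3374 CPM in *SOD1G93A*, and the endothelial list, with *Flt1* the most abundant, to 8.93, 9.90 and 13.4 and 6.72, 7.45 and 7.29 CPM. The sums of the genotypes overlapped for the microglia markers and for none of the other 3 lists above. Astrocyte, neuron and cell cycle sums overlapped too. Astrocyte marker sums were 5098, 5543 and 6135 CPM in WT and 5476, 4998 and 4414 CPM in *SOD1G93A*. Neuron marker sums were 990.5, 1024 and 800.3 CPM in WT and 955, 1037 and 1023 CPM in *SOD1G93A*. Cell cycle sums were 3503, 3558 and 3789 CPM in WT and 3594, 3368 and 3308 CPM in *SOD1G93A*. In limma 0 genes of any of these lists passed either limit. The part of these lists in the levels of the 10 genes was not tested.

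Activated astrocytes of the genotypes were compared as well. *Gfap* had 4063, 3918 and 3834 normalized counts in WT and 3062, 3315 and 3038 in *SOD1G93A* libraries. Each *SOD1G93A* library was below each WT one by less than 2-fold, and *Gfap* passed the looser limit (log2 change −0.33, SE 0.06, limma, adjusted p = 0.00102). *Tagln2* had 1185, 1126 and 1189 in WT and 1018, 995 and 1006 in *SOD1G93A* libraries, and *Vim* had 8659.9, 8316 and 8812 and 7463, 7571 and 7480.4. Both were lower in each *SOD1G93A* library and passed the looser limit, *Vim* with a log2 change of −0.20 (adjusted p = 0.045) and *Tagln2* with −0.21 (adjusted p = 0.030). Leaving out any of 5 libraries, the 3 WT ones and *SOD1G93A* replicates 2 and 3, both missed that limit, with adjusted p values of 0.10 to 0.21 for *Vim* and 0.058 to 0.16 for *Tagln2*. *Gfap* passed the looser limit in 13 of the 14 alternative fits, all but limma without a trend (adjusted p = 0.094). These WT activated libraries also entered the known result of *Gfap*, so neither its test nor these fits are independent of that.

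*Tpm1* was lower in each *SOD1G93A* activated library and just missed the looser limit (log2 change −0.24, adjusted p = 0.055, limma), and *Tagln* overlapped between genotypes (−0.37, adjusted p = 0.088). Without *SOD1G93A* replicate 3 both passed it, at −0.31, adjusted p = 0.014 and −0.47, adjusted p = 0.029. *Nes*, *Synm*, *Acta2*, *Cnn2* and *Myl9* had log2 changes of −0.46 to 0.10 with adjusted p values of 0.36 to 0.86. Leaving out 1 library, the change ran from −0.40 to −0.03 for *Acta2* (highest without WT replicate 2) and −0.15 to −0.06 for *Nes*. It ran from 0.03 to 0.19 for *Cnn2*, and for *Myl9* from −0.11 (without *SOD1G93A* replicate 1) to 0.33 (without *SOD1G93A* replicate 3). limma thus called 0 of the 10 genes, against 0.645% of the 12098 tested, and DESeq2 and edgeR also called 0 of the 10. At an unadjusted p under 0.05 there were 5 of the 10 genes and 2464 genes in all (20.4%). Past the looser limit were *Vim*, *Tagln2* and *Gfap*, of which *Gfap* has a known result in the same WT libraries. They were 3 of 10, all lower in *SOD1G93A*, against 7.27% of genes past that limit. DESeq2 placed 2 of the 10 there, with 517 genes in all, and edgeR 5 of the 10, with 941 genes in all. The 879 genes past the looser limit in limma became 391 to 1168 when 1 library was left out (lowest without WT replicate 1) and 222 without a trend, and the 3 of the 10 became 1 to 3 and 0. All *SOD1G93A* libraries were shallower than all WT libraries, so a fit with depth class as a term could not be made. The 14 pericyte, smooth muscle and fibroblast markers summed to 195, 189.9 and 180.2 CPM in WT and 147, 146 and 128 CPM in *SOD1G93A* activated libraries, with *Pdgfra* the most abundant and *Abcc9* at 0 in all 6, and 2 of the 6 tested passed the looser limit as lower. The 12 astrocyte markers summed to 3843, 3889 and 3951 CPM and 4121, 3964 and 4139 CPM, and of the 10 tested 5 passed it as higher and 1 as lower in *SOD1G93A*. The endothelial list, most of it *Flt1*, summed to 137, 149 and 154 CPM and 118, 117 and 111 CPM, and *Flt1*, the only one tested, passed it as lower. The 9 neuron markers summed to 572, 598 and 601 CPM and 526, 544 and 556 CPM, with *Map2* the most abundant, and 2 of the 7 tested passed it as lower, of which *Dcx* was called, though not without WT replicate 1. The oligodendrocyte lineage markers summed to 1158, 1195 and 1130.2 CPM and 1134, 1105 and 1181 CPM, and of the 9 tested 1 passed it as higher and 2 as lower. When 1 library was left out, the astrocyte markers past it as higher were 2 to 4, the pericyte, smooth muscle and fibroblast markers as lower 1 or 2, and *Flt1* missed it without WT replicate 2 or 3. The neuron markers past it as lower were 1 when any library other than *SOD1G93A* replicate 1 was left out, and the oligodendrocyte marker past it as higher was lost without WT replicate 1, WT replicate 2 or *SOD1G93A* replicate 2. The part of these lists in the levels of *Gfap*, *Vim* and *Tagln2* was not tested.

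In microglia the filament gene *Nes* carried the clearest change. It had 4749, 4877 and 4457 normalized counts in quiescent WT microglia and 683, 708 and 736 after LPS. The groups were far apart, by 6.62-fold between the means, and the fall was called (log2 change −2.73, SE 0.08, limma, adjusted p = 7.9e-10). The calponin gene *Cnn2* had 351, 396 and 354 and then 159, 124 and 151 normalized counts. It fell with no overlap and was called too (log2 change −1.34, SE 0.12, adjusted p = 4.5e-06). Both calls were kept in each of the 15 alternative fits. *Vim* fell in each LPS library past the looser limit, by 0.31 on the log2 scale (adjusted p = 0.0053). *Myl9*, with 4 to 33 reads per library, had a log2 change of −0.85 (adjusted p = 0.11), and without LPS replicate 1 it was −1.30 and passed the looser limit (adjusted p = 0.012). *Gfap*, *Tagln*, *Tagln2*, *Acta2* and *Tpm1* overlapped between the states, with log2 changes of −0.31 to −0.05 and adjusted p values of 0.22 to 0.79. Without LPS replicate 2 *Acta2* was at −0.06, while *Gfap* (0.16) and *Tagln* (0.11) turned higher. *Myl9* was at −0.55 with depth class as a term. *Synm* was not tested. So 2 of the 9 genes tested were called, against 20.8% of the 10866 genes tested, and 3 of 9 passed the looser limit, against 56.9%. The 12 microglia markers summed to 13737, 14754 and 13623 CPM before and 4370.4, 4368 and 4406 CPM after LPS and 9 of them were called lower, and the 14 cell cycle genes to 1042, 910.4 and 1078 and 230.5, 210.1 and 231 CPM. The oligodendrocyte lineage list summed to 1347, 1373 and 1386 and 140.1, 138 and 139 CPM, most of the difference in *Cspg4* (1229 to 65.6 CPM on average). Of its 5 tested genes *Cspg4* and *Mbp* were called lower and 1 passed the looser limit as higher, with a median log2 change of 0.10. Called higher were 2 of 9 tested astrocyte markers and 1 of 5 tested pericyte, smooth muscle and fibroblast markers, and of 3 tested endothelial markers 2 were called higher and 1 lower. The 2 endothelial markers called higher became 1 without quiescent replicate 1 or 2 or LPS replicate 2 or 3. The endothelial list summed to 67.0, 75.3 and 75.1 CPM before and 45.6, 55.9 and 50.7 CPM after LPS. The part of these lists in the fall of *Nes* and *Cnn2* was not tested.

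Between *SOD1G93A* and WT microglia given LPS, *Tpm1* had 249, 207 and 225 normalized counts in WT and 172, 189 and 162 in *SOD1G93A* libraries. It was the only one of the 10 genes whose libraries did not overlap, a pattern met by 18.2% of the 10679 genes tested. Its log2 change of −0.38 (SE 0.12) did not pass (limma, adjusted p = 0.57). The other 8 genes tested had log2 changes of −0.32 to 0.57, with *Myl9* at 0.29 without WT replicate 3 and at 0.23 with depth class as a term. Without *SOD1G93A* replicate 3 the direction turned for *Gfap* (0.14), *Vim* (0.0043), *Tagln* (0.019) and *Cnn2* (−0.010). That of *Acta2* turned without WT replicate 2 (−0.14). limma called 0 of the 9 genes tested, against 0% of 10679 genes, and 0 passed the looser limit, against 0.00936% (1 gene, and 0 to 2 when 1 library was left out). At an unadjusted p under 0.05 there were 1 of the 9 and 930 genes in all (8.71%), and DESeq2 and edgeR called 0 of the 9 and placed 0 under an adjusted p of 0.05. *Gfap* in these libraries ran from 150.4 to 378 normalized counts, both ends in *SOD1G93A* libraries, so its spread within a genotype was wider than the difference between them.

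Other genes of the cytoskeleton and its regulation were read from 6 lists with 103 genes in the tables: other intermediate filaments, filament linkers, other smooth muscle genes, non-muscle actomyosin, serum response factor regulators and targets, and the TGF-β pathway. In WT activation 79 were tested, 11 were called higher and 3 lower, against 740 higher and 684 lower of the 12336 genes tested (11.5%), and their median log2 change was 0.23, against 0.01 over all genes. *Plec*, the plectin that ties intermediate filaments to actin and to junctions, went from 242 ± 52.1 to 1357 ± 105 normalized counts (log2 change 2.503, adjusted p = 1.9e-07). *Mylk*, the kinase that switches on smooth muscle myosin, went from 118 ± 23.8 to 12.1 ± 4.05 normalized counts (log2 change −3.22, adjusted p = 3.7e-06). *Lmnb1*, a filament protein of the nuclear envelope, went from 1451 ± 289 to 426 ± 10.3 normalized counts (log2 change −1.75, adjusted p = 1.0e-06). *Tgfbr3*, a co-receptor for TGF-β, had a log2 change of 2.61 (adjusted p = 1.3e-05), all by limma. The neurofilament genes *Nefl* and *Nefm*, which overlap on opposite strands, had log2 changes of 2.95 and 2.90 from 1 to 16 and 2 to 39 reads per quiescent library. Leaving out quiescent replicate 2 or any activated library ended both calls, at adjusted p values of 0.0033 to 0.0085 for *Nefl* and 0.0011 to 0.0021 for *Nefm*. The immediate early gene *Egr1* fell by 1.04 on the log2 scale, and came to −0.98, −0.97 and −0.99, under the 2-fold limit, without quiescent replicate 1, quiescent replicate 2 and activated replicate 1.

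At the looser limit in WT activation, 2351 of all genes rose and 2371 fell, and differences between the lists were not tested. Of the 28 non-muscle actomyosin genes 11 rose and 2 fell, of 13 tested serum response factor genes 7 rose and 2 fell, and of 15 tested TGF-β pathway genes 8 rose and 1 fell. Of 13 tested smooth muscle genes other than the 6 above, 2 rose and 5 fell, of 7 tested intermediate filament genes 3 rose and 2 fell, and of 3 tested linkers 2 rose. When 1 library was left out, those that fell were 2 to 5 of the actomyosin, 1 to 4 of the TGF-β, 3 or 4 of the smooth muscle, and 1 or 2 of the serum response factor and the filament genes. In *SOD1G93A* activation 79 of these genes were tested, 13 were called higher and 3 lower, against 827 higher and 808 lower of 12269 genes (13.3%). The called genes again included *Nefl*, *Nefm*, *Tgfbr3* and *Plec* among those that rose and *Mylk*, *Lmnb1* and *Egr1* among those that fell. *Plec* went from 229.8 ± 14.8 to 1249.7 ± 66.8 normalized counts (log2 change 2.44, adjusted p = 5.1e-11) and *Mylk* from 150.0 ± 21.3 to 15.1 ± 9.47 normalized counts (log2 change −3.47, adjusted p = 1.6e-06), by limma. The call of *Nefl* (log2 change 3.17, adjusted p = 0.00017) was lost without activated replicate 1 (adjusted p = 0.0015) or 3 (adjusted p = 0.0014).

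Between the genotypes in activated astrocytes, 7 of the 79 tested passed the looser limit as higher and 2 as lower in *SOD1G93A*, against 557 higher and 322 lower of 12098 genes (7.27%). DESeq2 gave 4 higher and 0 lower and edgeR 7 and 3, and leaving out 1 library gave 4 to 7 higher and 0 to 4 lower. Among them *Cyr61*, a matricellular target of serum response factor, had a log2 change of 0.74 (adjusted p = 0.00060), the ligand gene *Tgfb2* of 0.58 (adjusted p = 0.0030), and the actin monomer binder *Tmsb4x* of 0.32 (adjusted p = 0.0011), while *Actn1*, an actin crosslinker, was lower (−0.38, adjusted p = 0.012, limma), a result lost without WT replicate 1 (adjusted p = 0.11). *Csrp1*, a partner of actin crosslinkers, was higher (log2 change 0.31, adjusted p = 0.0053). The matricellular gene *Ctgf* was higher (0.39, adjusted p = 0.012) and *Nefm* lower (−0.59, adjusted p = 0.038), and both missed the limit without WT replicate 1 (adjusted p = 0.063 and 0.13), WT replicate 2 (0.060 and 0.15) or *SOD1G93A* replicate 3 (0.056 and 0.11). *Nefm* also missed it without WT replicate 3 (0.13) or *SOD1G93A* replicate 2 (0.11). In quiescent astrocytes, in LPS-treated microglia and in the interaction, limma called 0 of the 77, 70 and 79 tested and placed 0 under an adjusted p of 0.05, with 8, 9 and 6 at an unadjusted p under 0.05, and DESeq2 and edgeR also gave 0 at both limits. After LPS in WT microglia, 71 were tested, 8 were called higher and 10 lower, against 1110 higher and 1153 lower of 10866 genes (20.8%). The matrix protein gene *Thbs1* went from 159 ± 17.2 to 11667 ± 3278 normalized counts (log2 change 6.15, adjusted p = 1.4e-09) and *Tgfb2* from 10.9 ± 5.82 to 135 ± 38.2 normalized counts (log2 change 3.64, adjusted p = 2.1e-05). The TGF-β receptor genes *Tgfbr1* and *Tgfbr2* fell, with log2 changes of −2.45 (adjusted p = 1.8e-07) and −2.19 (adjusted p = 1.1e-07), and so did *Actn1* (−1.63, adjusted p = 3.2e-07, limma). Of the others called, the immediate early gene *Fos* and the SMAD corepressor *Tgif1* had log2 changes of 2.60 and 1.77, and the inhibitors of TGF-β signalling *Ski* and *Smad7* of −1.83 and −1.59.

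Genes with the most similar pattern over the 12 astrocyte libraries were found by the root mean square difference of centred log2(CPM + 1) values among 11196 genes. For *Gfap* they were *Pcdhgc5* (0.25), *Adgre5* (0.27) and *C4b* (0.28), where the median difference over all genes was 0.93. *Tagln2* was number 12 for *Gfap* at 0.34. For *Vim* the closest were *Clip3* (0.099), *Ywhag* (0.10) and *Top1* (0.10) against a median of 0.43, and for *Nes* *Palm* (0.065), *Sf3b3* (0.066) and *Cdk17* (0.067) against 0.33. For *Tagln* the closest were *Tmem178* (0.17), *1700084C01Rik* (0.19) and *Fbln2* (0.20) against a median of 0.61, and for *Acta2* the closest included *Tecta* (0.18) and *Tuba1b* (0.20) against 0.62. *Pcdhgc5* shares exons with the other genes of its protocadherin cluster, and *C4b* is nearly identical to *C4a*, so their counts are uncertain. These values describe 12 libraries in 4 conditions and were not tested.

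Promoter sequences of 9 of the 10 genes came from RefSeq on GRCm38.p6, with no entry for *Tagln*. They were searched for the CArG box, a site that serum response factor binds, in its strict form only (CCWWWWWWGG, with W for A or T). The search covered the 250 bases before the RefSeq start of each gene on both strands, where the box reads the same. The box was found in 2 of the 9, *Cnn2* and *Myl9*, and in 482 of 32841 promoter windows of the same length (1.47%). The *Acta2* window held ccctatatgg and ccttgtttgg, which have another letter within the A or T stretch. Such near matches were not counted, so the search does not say whether *Acta2* has a site that the factor binds. In *Cnn2* the box began 56 bases and in *Myl9* 161 bases before the start. These windows are shown because they hold the box, and *Myl9* fell in activated astrocytes while *Cnn2* fell in LPS-treated microglia. They are given 5′ to 3′ with the box in capitals, for *Cnn2* (chr10:79988350-79988599, plus strand) and *Myl9* (chr2:156775214-156775463, plus strand). A match is a description of the letters, and the absence of one says only that these letters are not in the window.
Cnn2: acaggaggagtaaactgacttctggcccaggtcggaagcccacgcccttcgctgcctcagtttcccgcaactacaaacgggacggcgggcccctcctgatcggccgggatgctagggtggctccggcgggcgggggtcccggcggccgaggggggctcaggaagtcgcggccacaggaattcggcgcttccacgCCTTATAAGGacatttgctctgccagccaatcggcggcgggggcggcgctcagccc
Myl9: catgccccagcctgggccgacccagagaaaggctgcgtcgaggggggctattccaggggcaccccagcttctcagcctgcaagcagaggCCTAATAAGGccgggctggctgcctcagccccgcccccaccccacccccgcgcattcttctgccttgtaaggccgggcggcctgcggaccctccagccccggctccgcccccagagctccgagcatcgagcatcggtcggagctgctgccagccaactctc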

How the data were processed

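Polyadenylated RNA of cultured mouse astrocytes and microglia was sequenced in 24 libraries, of which 21 have deposited values. According to the submitters' processing notes, reads were mapped to mm10 with STAR, counted with RSEM and scaled with DESeq2. The deposited signal is a normalized count per gene and library, in 6 tables. Dividing each library's values by its smallest step gave whole reads within a tolerance of 0.01, and these were used for levels in CPM. The authors' own fold changes and p values in those tables were not used. The members and gene lists were chosen with earlier results of these data known.

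In R 4.3.3, limma 3.58.1 with an intensity trend was fitted to log2(normalized count + 1) of genes with a mean of at least 10. Each of 5 comparisons was fitted within its own table, and activation in *SOD1G93A* astrocytes and the genotype by state interaction were fitted over 12 astrocyte libraries. The sixth table compares groups that differ in both genotype and activation and served only for reads. All tests were two-sided, with Benjamini-Hochberg adjustment over all genes tested. Besides the 10 genes, the named genes were up to 5 with the largest rise and up to 5 with the largest fall among called, non-overlapping genes of the cytoskeleton lists, or at an adjusted p under 0.05 where none was called. Alternatives were pseudocounts of 0.5 and 5, no filter on low values, TMM scaling, limma without a trend, DESeq2 1.42.0, edgeR 4.0.16, the replicate number as a block, depth class as a term, and each library left out in turn. The tests were also run on simulated reads with known changes, the same dispersion for every gene and no outlying library. That check therefore does not cover the spread between the libraries of this study. Per kb values use exon length from GENCODE M21.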

Additional observations from a re-analysis of the deposited data

How the results depend on the processing

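Of 1068 log2 fold changes of the 10 genes under the alternatives, 1036 kept their direction and their side of the stricter limits, 11 passed them only under the alternative, 5 no longer passed them and 16 reversed. No reversed value belonged to a gene that was called in its comparison. Without a trend in limma's variance, 2 of the 10 genes were called in WT activation and 1 gene in all between activated genotypes. DESeq2 called 1 of the 10 genes (*Tagln*, known there beforehand and only described, so 0 of the other 9) and 6 genes in all between quiescent genotypes, 2 genes in all between LPS-treated microglia, and 20 genes in all in the interaction. In the interaction, edgeR called 4 genes in all and a pseudocount of 5 gave 3. With depth class as a term, 3 of the 10 genes (*Tagln*, and *Gfap* and *Tagln2* of the other 9) and 13 genes in all were called between quiescent genotypes, 1 gene in all between LPS-treated microglia, and 2 of the 10 (*Tagln2*, and *Gfap*, which is only described there) and 56 genes in all in the interaction. That term could not be fitted between activated genotypes. The cause was not tested.

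Leaving out 1 library at a time, the number of the 10 genes called was 3 to 5 in WT activation (the 5 include *Gfap*), 2 to 4 in *SOD1G93A* activation, 2 in each fit of the LPS comparison and 0 in each fit of the other comparisons. The number of all genes called was 1087 to 1547 in WT activation, 1486 to 1580 in *SOD1G93A* activation, 67 to 81 between activated genotypes, 1991 to 2334 after LPS, 0 to 6 in the interaction, and 0 in each fit between quiescent genotypes and between LPS-treated microglia. With replicate number as a block (the replicate block), 5 of the 10 genes were called in WT activation, of which *Gfap* was known beforehand and is only described, and 100 genes in all between activated genotypes. Nothing in the labels says that equal numbers were processed together.

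The reversed log2 fold changes came mostly from single libraries, and the ranges here run over the fits that leave 1 library out. Between LPS-treated microglia of the genotypes they were −0.5223 to 0.1408 for *Gfap*, −0.1347 to 0.004345 for *Vim* and −0.6706 to 0.01937 for *Tagln*, each highest without *SOD1G93A* replicate 3. There *Cnn2* ran from −0.05461 (without WT replicate 2) to 0.1518, and was −0.01014 without *SOD1G93A* replicate 3. *Acta2* ran from −0.1389 (without WT replicate 2) to 0.2945, and was −0.04327 without *SOD1G93A* replicate 2 and −0.04939 with depth class as a term. For the LPS response in WT microglia the ranges were −0.1941 to 0.1565 for *Gfap* and −0.3538 to 0.1133 for *Tagln*, each highest without LPS replicate 2. *Synm* in *SOD1G93A* activation ran from −0.2694 to 0.3072 (without quiescent replicate 2), and was 0.05571 and 0.03703 without activated replicates 2 and 3 and 0.2272 with depth class as a term. *Tpm1* between quiescent genotypes ran from −0.0008747 (without *SOD1G93A* replicate 3) to 0.1439, and *Myl9* between activated genotypes from −0.1091 (without *SOD1G93A* replicate 1) to 0.3254. The cause was not tested. Depth limits *Synm*, with 5 to 45 reads per astrocyte library, and *Myl9* in microglia, with 4 to 33.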
